A study of Mus musculus with 2 samples.

Results

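The CXCR3 chemokine axis was described here through 5 of the 22836 genes in the count table: the ligands Cxcl9, Cxcl10 and Cxcl16 and the receptors Cxcr3 and Cxcr6. They were chosen by name, and all 5 were measured in all 14 mice. The study profiled RNA of single leukocytes, labelled as CD45+ cells, from Colon26 tumours, grown under the skin of wild-type BALB/c mice from a mouse line of colon carcinoma, though a source label names intestinal cells. The minP1 mice (n = 4) received minP1, an immunostimulatory peptide of the nucleosome-binding protein HMGN1, at 0.08 µg into the peritoneum on day 9. The PDL1 mice (n = 3) received 200 µg of an antibody to PD-L1, which binds the inhibitory receptor PD-1 of T cells, on day 4 and again on day 8. The minP1_PDL1 mice (n = 4) received both agents on those days, and the Control mice (n = 3) were untreated. All mice carried the same tumour line, and tumours were taken on day 10. A mouse is named here by its group and replicate number.

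CXCL9 and CXCL10 are chemokines that cells release after exposure to interferons, and both bind CXCR3, a receptor of activated T cells, NK cells and some dendritic cells. CXCL16 is made as a membrane-bound chemokine that proteases release from the surface, and it binds CXCR6, a receptor of tissue-resident and effector T cells. In mouse tumours, CXCL9 from macrophages and dendritic cells is known to draw in and position T cells that carry CXCR3.

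After cell filters 7732 cells remained, 466 to 724 per mouse, with 26007834 to 51230461 reads per mouse and a median of 39132.5 reads and 2078 genes per cell. Counts were reads not collapsed by molecular identifier, so counting intervals would cover less than the true error, and the mouse was the unit of every test. Nothing in the labels gave a run for a mouse, so a run and a treatment group cannot be told apart where they coincide. Clusters were named from marker genes with the members left out of the clustering, and the names are "like" names throughout. The cluster called CD8 T cells (289 cells) also had Pdcd1, Lag3 and Ifng among its leading genes, and Cd8b1 was among those of the cluster called other T cells, so CD8 T cells can lie in both. Ptprc, which encodes CD45, averaged 1419 ± 94.4 CPM (reads of the gene per 1e6 summed reads of a class in a mouse) in immune clusters (SD, n = 14). It averaged 42.9 ± 29.2 CPM in a fibroblast-like cluster of 493 cells, which goes against the CD45+ label for that cluster. One cluster of 667 cells held markers of monocytes and of macrophages, and 46.6% of its cells had a high doublet score. It is called "monocytes or macrophages" here and is given separately wherever it decides a value.

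Cxcl9 and Cxcl10 are neighbours on chromosome 5 with 18558 bases between them (GRCm38.p6), and Cxcl11, the other CXCR3 ligand, lies beyond Cxcl10. The 250 bases before the gene start, from RefSeq on build GRCm38.p6, are shown for the 4 members with an entry because the ligands and the receptors are transcribed in different cells. Each is written 5′ to 3′ along the gene's strand, and capitals mark the letters of any searched motif.
Cxcl9: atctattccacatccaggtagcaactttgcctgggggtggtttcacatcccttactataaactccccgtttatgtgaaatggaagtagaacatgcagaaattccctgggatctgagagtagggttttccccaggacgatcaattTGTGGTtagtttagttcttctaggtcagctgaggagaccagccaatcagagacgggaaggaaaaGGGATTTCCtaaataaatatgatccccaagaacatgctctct
Cxcl10: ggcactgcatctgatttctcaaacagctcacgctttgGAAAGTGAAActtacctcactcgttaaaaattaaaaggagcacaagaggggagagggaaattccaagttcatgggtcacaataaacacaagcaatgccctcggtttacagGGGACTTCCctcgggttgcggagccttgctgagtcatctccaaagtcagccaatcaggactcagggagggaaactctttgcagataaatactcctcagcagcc
Cxcr3: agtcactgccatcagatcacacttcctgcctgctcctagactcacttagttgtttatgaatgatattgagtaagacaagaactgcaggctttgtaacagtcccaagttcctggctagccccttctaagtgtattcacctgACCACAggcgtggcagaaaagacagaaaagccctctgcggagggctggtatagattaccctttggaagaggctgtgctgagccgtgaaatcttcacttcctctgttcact
Cxcr6: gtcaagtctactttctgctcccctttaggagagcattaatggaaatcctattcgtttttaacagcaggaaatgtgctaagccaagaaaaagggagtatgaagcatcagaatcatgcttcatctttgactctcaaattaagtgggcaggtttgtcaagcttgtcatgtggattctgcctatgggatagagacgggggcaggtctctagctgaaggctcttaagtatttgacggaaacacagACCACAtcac
These windows lie at chr5:92328080-92328329 on the minus strand for Cxcl9 and chr5:92348890-92349139 on the minus strand for Cxcl10. They lie at chrX:101734148-101734397 on the minus strand for Cxcr3 and chr9:123806227-123806476 on the plus strand for Cxcr6. Cxcl16 lies on chromosome 11 (70454389 to 70459984). The motifs were searched on both strands over all 250 bases. The NF-kB letters GGGANTTCC were in the Cxcl9 window, from -42, and in the Cxcl10 window, from -103, and in 1.43% of 32851 windows of the same length. The interferon-stimulated response element, searched as GAAA and again GAAA with any 2 bases between, was in the Cxcl10 window, from -213, and in 2.98% of windows. The RUNX letters TGTGGT were in the Cxcl9 window and, on the other strand as ACCACA, in both receptor windows, against 14% of windows. The gamma-activated sequence TTCNNNGAA, held by 7.02% of windows, and the T-box letters GGTGTGA, held by 3.33%, had no match in these 4 windows. No searched motif overlapped another in these windows. A match is a description of letters only.

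Cxcl9 was a gene of monocytes, macrophages and dendritic cells. It averaged 1045 ± 555 CPM in monocytes (SD, n = 14 mice, range 416 to 2332), 525 ± 179 CPM in macrophages and 567 ± 215 CPM in the cluster of monocytes or macrophages. Among dendritic cells it averaged 635 ± 457 CPM in conventional DC2, the subset specialised in CD4 T cells (n = 12 mice), and 274 ± 230 CPM in plasmacytoid DC. In T cells it averaged 27.9 ± 26.5 CPM, in NK cells 16.9 ± 18.9 CPM and in fibroblast-like cells 9.29 ± 11.3 CPM. Monocytes were therefore highest by mean, but the levels of neighbouring classes overlapped between mice throughout the order.

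With every cell thinned to 10000 reads, 36.7% of monocytes, 36.4% of macrophages and 29.8% of dendritic cells held a Cxcl9 read. The share was 4.28% in fibroblast-like cells, at a median of 148345 reads per cell before thinning, and 6.02% in T cells, at a median of 21068. Macrophages supplied 33.5 ± 12.5% of a mouse's Cxcl9 reads while making up 15.2% of its cells. Monocytes supplied 23.3 ± 9.81% as 8.94% of cells, the cluster of monocytes or macrophages 27.5 ± 10.996% as 8.69%, and dendritic cells 11.1 ± 6.93% as 6.40%. T cells were 25.9% of cells and supplied 1.13% of Cxcl9 reads.

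Cxcl10 had a wider set of sources than the cells named in the axis. Neutrophils had the highest mean, 777 ± 487 CPM (n = 13 mice, range 201 to 1848), and monocytes followed at 688 ± 397 CPM (range 283 to 1683). These ranges overlapped. Gamma delta T cells averaged 408 ± 231 CPM (n = 8 mice), macrophages 232 ± 112 CPM, dendritic cells 230 ± 101 CPM, fibroblast-like cells 83.0 ± 71.8 CPM and CD8 T cells 14.0 ± 14.8 CPM. At 10000 reads, 30.8% of neutrophils (120 of 389) and 33.7% of monocytes held a read, against 8.99% of fibroblast-like cells and 5.57% of CD8 T cells. The median neutrophil held 13520 reads before thinning, so that 389 of 504 neutrophils were deep enough to enter. Neutrophils supplied 8.32 ± 6.94% of a mouse's Cxcl10 reads as 6.61% of its cells, and T cells supplied 7.18%.

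Cxcl16 was highest in macrophages, monocytes and dendritic cells. It averaged 418 ± 104 CPM in macrophages (range 176 to 554), 320 ± 179 CPM in monocytes and 271 ± 85.5 CPM in dendritic cells. It averaged 12.97 CPM in T cells and 4.43 CPM in fibroblast-like cells. A read was found in 64.2% of thinned macrophages, 39.3% of monocytes, 43.8% of dendritic cells, 3.2% of T cells and 1.93% of fibroblast-like cells. In mature DC, the migratory state marked by Ccr7 and Fscn1, 35 of 39 thinned cells (89.7%) held a read at a pooled level of 803 CPM. No mouse reached 10 mature DC, so that level has no spread over mice. Macrophages supplied 46.4 ± 14.9% of a mouse's Cxcl16 reads.

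**Figure D1:**
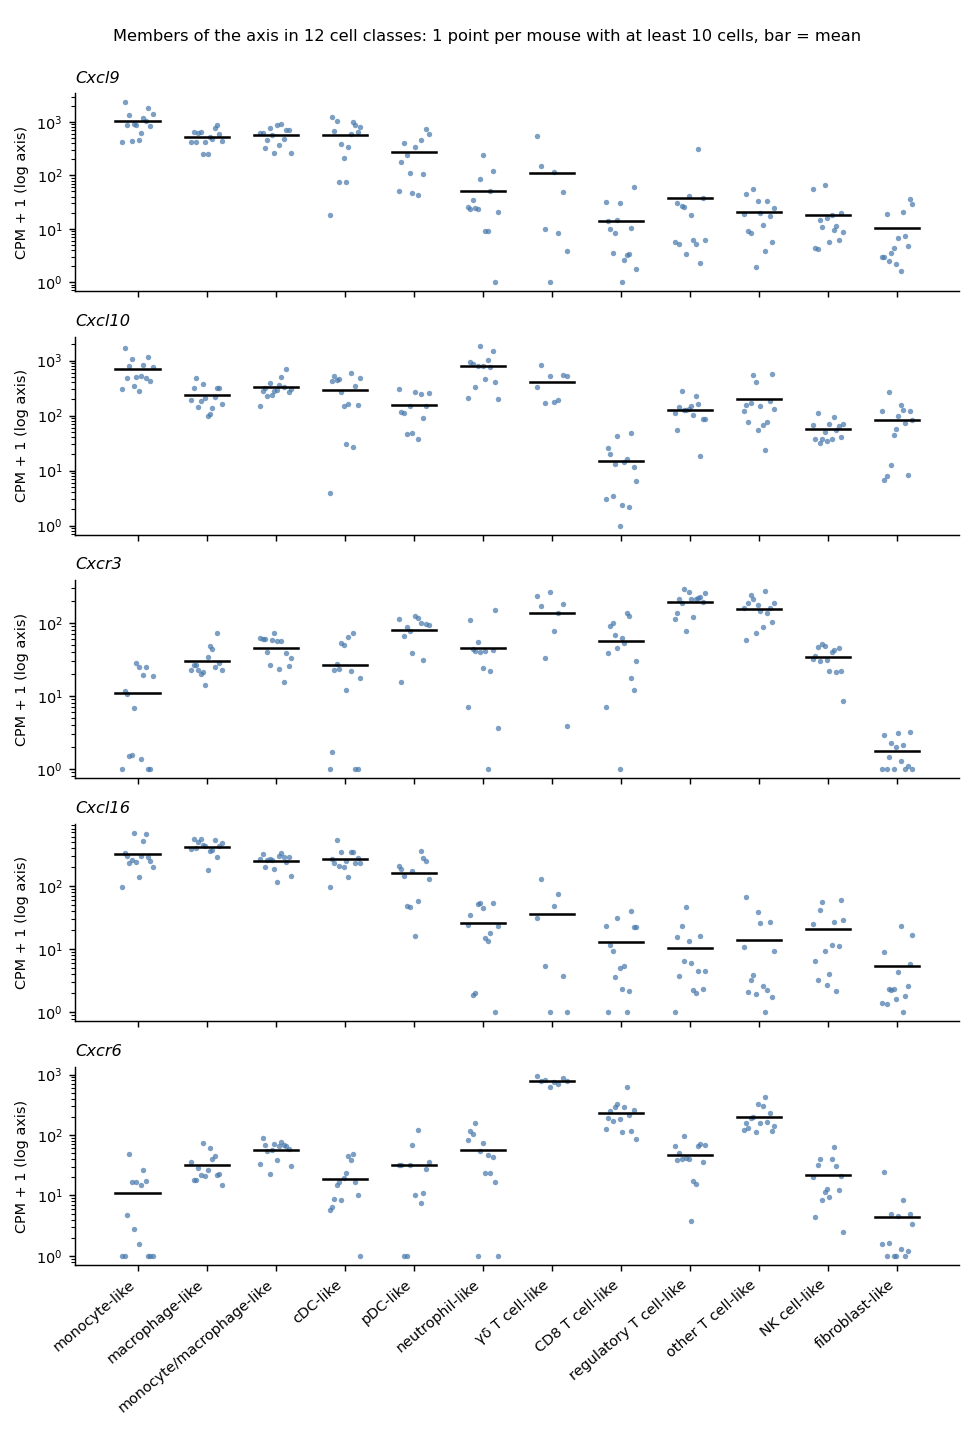
Level of each member in 12 cell classes, as CPM plus 1 on a log axis, with 1 point per mouse that had at least 10 cells of the class and a bar at the mean. Cxcl9 and Cxcl16 stand high in the monocyte, macrophage and DC classes, Cxcl10 reaches neutrophils as well, and Cxcr6 is highest in γδ T cells.

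Cxcr3 was highest in regulatory T cells, the suppressive subset marked by Foxp3, at 192 ± 61.5 CPM (n = 14, range 75.6 to 286). Other T cells averaged 155 ± 62.2 CPM and gamma delta T cells 136 ± 92.4 CPM. CD8 T cells averaged 54.7 ± 42.6 CPM (range 0 to 133), plasmacytoid DC 78.4 ± 35.0 CPM (n = 12 mice) and NK cells 33.0 ± 12.5 CPM. The neighbouring levels overlapped between mice. At 10000 reads a Cxcr3 read was found in 25.6% of regulatory T cells (149 of 583), 11.1% of CD8 T cells (32 of 287) and 7.99% of NK cells. It was found in 29.1% of plasmacytoid DC (50 of 172) and in 0.214% of fibroblast-like cells (1 of 467).

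Cxcr6 had another order within the same T cells. Gamma delta T cells averaged 782 ± 100.1 CPM (range 628 to 941) and CD8 T cells 229 ± 133 CPM (range 85.8 to 611), and gamma delta T cells were higher in all 8 mice with enough cells of both. Other T cells averaged 197 ± 93.5 CPM, regulatory T cells 45.7 ± 25.5 CPM and NK cells 21.2 ± 17.5 CPM. A Cxcr6 read was found in 55.3% of gamma delta T cells (78 of 141), 44.9% of CD8 T cells (129 of 287), 6.0% of regulatory T cells and 1.93% of fibroblast-like cells. Regulatory T cells thus held the highest mean of Cxcr3 among T cells and the lowest of Cxcr6.

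Receptor reads also lay in myeloid clusters, and T cell marker reads moved with them. T clusters together held 40.4 ± 9.85% of a mouse's Cxcr3 reads and 48.8 ± 10.3% of its Cxcr6 reads. The cluster of monocytes or macrophages held 17.9% of Cxcr3 reads and 19.8% of Cxcr6 reads. All 13 T cell markers of the fixed list, such as Cd3e and Trac, had reads in that cluster, with a summed level of 2436 CPM (2001 to 2897 over mice) against 8558 CPM in regulatory T cells. In that cluster 91.1% of thinned cells held reads of at least 2 of these markers. In fibroblast-like cells the sum was 89.2 CPM. Per 1000 T cell marker reads, Cxcr3 had 18.0 reads in the cluster of monocytes or macrophages, 19.1 in the larger macrophage cluster, 18.0 in monocytes, 16.5 in neutrophils and 18.0 in all T clusters pooled. The ratio for Cxcr6 was 24.3, 19.7, 20.3 and 24.5 in those myeloid classes in the same order and 26.1 in all T clusters. These ratios are pooled over mice. The mean over mice for Cxcr6 was 13.9 ± 17.8 in monocytes and 20.3 ± 6.77 in the larger macrophage cluster, against 26.4 ± 7.41 in all T clusters (SD, n = 14). Whether such barcodes hold T cell RNA was not tested.

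Plasmacytoid DC and conventional DC1, the cross-presenting subset, differed from that ratio for Cxcr3. Plasmacytoid DC had 59.7 Cxcr3 reads per 1000 T cell marker reads (63.7 ± 34.6 over mice with at least 10 cells), and conventional DC1 had 171 (263 of 1538 reads, pooled over mice). For Cxcr6 their ratios were 20.5 and 39.0. They were not the only classes to differ for Cxcr3. Pooled over mice, B cells had 46.8 (47 reads) and unnamed clusters led by Alox15 and Ctsk 39.9 and 34.2 (49 and 41 reads). A mixed sub-cluster of conventional DC had 30.8, mature DC 15.1 and conventional DC2 9.15 (38 reads). Cxcr3 reads were in 29.1% of plasmacytoid DC, and in 29.6% when cells with a high doublet score were excluded. Before and after that exclusion they were in 17.9% and 16.9% of the cluster of monocytes or macrophages. The shares were 11.3% and 10.2% in the larger macrophage cluster, 2.65% and 2.56% in monocytes and 7.46% and 4.82% in neutrophils. The exclusion thus did not set plasmacytoid DC apart from most of these clusters. CD8 T cells had 7.92 Cxcr3 reads per 1000 T cell marker reads, regulatory T cells 22.8, and gamma delta T cells 131 for Cxcr6.

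**Figure D2:**
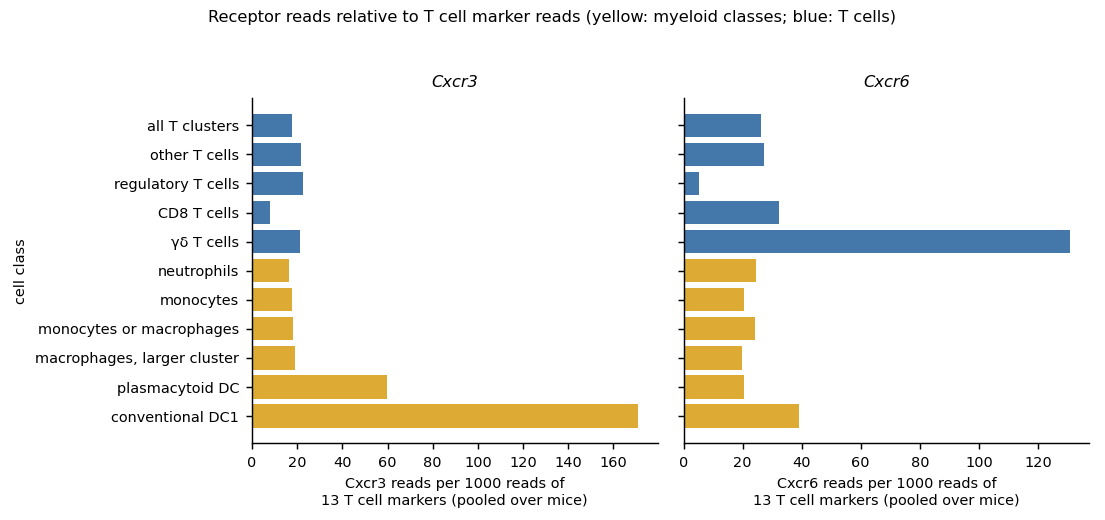
Reads of Cxcr3 (left) and Cxcr6 (right) per 1000 reads of 13 T cell markers, pooled over mice, in 6 myeloid classes (yellow) and T cells (blue). For Cxcr3 conventional DC1 and plasmacytoid DC stand at 171 and 59.7, above the 18.0 of all T clusters. Monocytes, the larger macrophage cluster, the cluster of monocytes or macrophages and neutrophils lie between 16.5 and 19.1. A smaller macrophage cluster of shallow cells had 23.3 (100 of 4297 reads).

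Across 17 clusters, the genes whose levels most resembled a member were found among 8524 genes with a mean of at least 10 CPM. These are correlations of log2(CPM + 1) over clusters that share one library, given as a description. For Cxcl9 they were Ctsa (r = 0.97), Ctss and Cd74 (0.95 each), with Gm6377 and H2-Aa; Ctss and Cd74 serve antigen presentation on MHC class II. For Cxcl10 they were the interferon-stimulated genes Oas2, Rnf213 (0.90 each), Rtp4 (0.88), Irf7 and Isg15 (0.87 each). For Cxcl16 they were Ctsc (0.99), Gatm, BC028528, Lyz1 and Cfp, for Cxcr3 Xlr4c (0.96), Grap, Chst2, Acp5 and Lef1, and for Cxcr6 Map4k2 (0.85), Swt1, Xlr4b, Gm5601 and Cd3e. Between members, Cxcl9 had r = 0.93 with Cxcl16 and 0.64 with Cxcl10, and the receptors had 0.36 with each other.

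The 4 treatment groups were then compared, and no member passed the test in any class. Counts were summed per mouse over all kept cells, T cells, NK cells, monocytes with macrophages and dendritic cells, and 7 contrasts were tested with edgeR's quasi-likelihood test over all genes. Of 175 tests of members 0 had an adjusted p under 0.05, the smallest being 0.449, and 7 (4%) had an unadjusted p under 0.05, beside 5.58% of the tests of all genes. DESeq2 called 0 of 175, beside 724 of 492093 tests over all genes. It gave 8 of the 175 an unadjusted p under 0.05, beside 6.42% over all genes. With edgeR the percentage of all genes called was 0% in 34 of 35 comparisons and 0.00779% in T cells of minP1_PDL1 against Control mice. In such sums, fewer cells of a type and less RNA per cell cannot be told apart. Nothing in the labels gave more than 1 sample per mouse, and p-values measure the spread between mice.

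In monocytes and macrophages, Cxcl9 stood at 478, 817, 484 and 693 CPM in the minP1 mice and at 657, 536 and 439.5 CPM in the PDL1 mice. It stood at 421, 469, 838 and 759 CPM in the minP1_PDL1 mice and at 959.7, 654 and 513 CPM in the Control mice. The 4 groups overlapped, with the highest mouse among the untreated ones. The log2 change was -0.17 ± 0.27 (SE) in minP1_PDL1 over Control mice (95% interval -0.75 to 0.40, adjusted p = 0.96 by edgeR), -0.40 ± 0.29 in PDL1 over Control and -0.19 ± 0.27 in minP1 over Control mice. Without Control_1 the combined change had the other sign, 0.10.

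Cxcl10 in the same cells stood at 194, 453, 429 and 264 CPM in the minP1 mice and at 352, 298 and 304.1 CPM in the PDL1 mice. The minP1_PDL1 mice held 165, 332, 456 and 313.4 CPM and the Control mice 624, 311.3 and 303.2 CPM. Control_1 was again the highest, and the groups overlapped. The log2 change of minP1_PDL1 over Control mice was -0.37 ± 0.34 (95% interval -1.09 to 0.35, edgeR) and 0.05 without Control_1.

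Cxcl16 in monocytes and macrophages stood at 319, 463, 307.1 and 398 CPM in the minP1 mice and at 436, 409 and 260.4 CPM in the PDL1 mice. The minP1_PDL1 mice had the lowest and the highest value, with 157, 307.7, 386 and 495 CPM, and the Control mice had 262, 348 and 307.1 CPM. The log2 change of minP1_PDL1 over Control mice was 0.15 ± 0.29 (95% interval -0.46 to 0.77) and -0.10 without minP1_PDL1_4. Over the 3 ligands and all 7 contrasts, the log2 changes in monocytes and macrophages ran from -0.40 to 0.42.

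Dendritic cells gave one contrast with a low unadjusted p. Cxcl9 stood at 52.0, 652, 552 and 785 CPM in the minP1 mice, 185, 289.6 and 181 CPM in the PDL1 mice, 142, 573, 332 and 646 CPM in the minP1_PDL1 mice and 428, 656 and 663 CPM in the Control mice. Each PDL1 mouse was below each Control mouse, and the minP1 and minP1_PDL1 mice spanned both. The log2 change of PDL1 over Control mice was -1.42 ± 0.65 (95% interval -2.80 to -0.04, adjusted p = 1 by edgeR), with an unadjusted p under 0.05, as in 4.77% of all genes in that contrast. The share of dendritic cells with a Cxcl9 read was 24.1, 25.6 and 33.3% in the PDL1 mice and 34.5, 27.8 and 28.6% in the Control mice, which overlapped. In conventional DC2, with 7 to 15 cells in each of these mice, the levels overlapped as well, at 152, 923 and 160.0 CPM in the PDL1 mice and 604, 1039 and 494 CPM in the Control mice. The log2 changes of minP1_PDL1 over Control mice in dendritic cells were -0.49 ± 0.59 for Cxcl9, -0.21 ± 0.44 for Cxcl10 and -0.34 ± 0.33 for Cxcl16, none past the test. The Cxcl10 value turned to 0.20 without Control_3 and to 0.03 without minP1_PDL1_1.

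The receptors in T cells were at similar levels in the 4 groups. Cxcr3 stood at 128, 81.7, 149 and 166 CPM in the minP1 mice, 156, 70.5 and 151 CPM in the PDL1 mice, 149, 83.8, 217 and 148 CPM in the minP1_PDL1 mice and 118, 87.8 and 149 CPM in the Control mice. The log2 change of minP1_PDL1 over Control mice was 0.33 ± 0.33 (95% interval -0.37 to 1.03). Cxcr6 stood at 189, 173, 182 and 162 CPM in the minP1 mice, 252, 205 and 173 CPM in the PDL1 mice, 117, 226, 375 and 167 CPM in the minP1_PDL1 mice and 181, 177 and 128 CPM in the Control mice. Both the lowest and the highest Cxcr6 value were in minP1_PDL1 mice, and its log2 change over Control mice was 0.44 ± 0.28 (95% interval -0.15 to 1.04, neither receptor past the test).

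In NK cells the receptors were low and variable. Cxcr6 stood at 19.2, 3.43, 30.8 and 39.6 CPM in the minP1 mice, 7.49, 10.4 and 11.7 CPM in the PDL1 mice, 8.47, 39.7, 63.3 and 29.6 CPM in the minP1_PDL1 mice and 11.3, 20.3 and 1.502 CPM in the Control mice. The minP1_PDL1 mice overlapped both other groups through their lowest mouse. The log2 change was 1.81 ± 0.84 in minP1_PDL1 over PDL1 mice (adjusted p = 0.846 by edgeR, with an unadjusted p under 0.05, as in 5.79% of all genes there) and 1.65 ± 0.83 in minP1_PDL1 over Control mice. Both were negative in the run that kept barcodes of high mitochondrial share, at -0.09 and -0.28. Cxcr3 in NK cells changed by 0.30 ± 0.49 in minP1_PDL1 over Control mice, by -0.13 without Control_3 and by -0.07 in that run. The NK class itself differed there. A cluster of 239 cells led by the granzyme gene Gzmd had no name in that run and lay outside the class. In the main run the class included a Gzmd-led cluster of 384 cells. The added barcodes and the changed class cannot be told apart.

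Over all kept cells Cxcr6 had a log2 change of 0.65 ± 0.29 in minP1_PDL1 over Control mice (95% interval 0.04 to 1.27, adjusted p = 0.449 by edgeR), where 10.4% of all genes had an unadjusted p under 0.05. The remaining contrasts with such a p were of Cxcl16 in T cells, at 8.49, 2.39, 0.707 and 2.35 CPM in the minP1_PDL1 mice and 6.66, 27.9 and 25.2 CPM in the PDL1 mice. Its log2 change there was -2.49 ± 0.79 (adjusted p = 0.895 by edgeR), beside 5.5% of all genes with an unadjusted p under 0.05. A Cxcl16 read was found in 3.2% of T cells against 1.93% of fibroblast-like cells, so that these are levels close to the background.

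**Figure D3:**
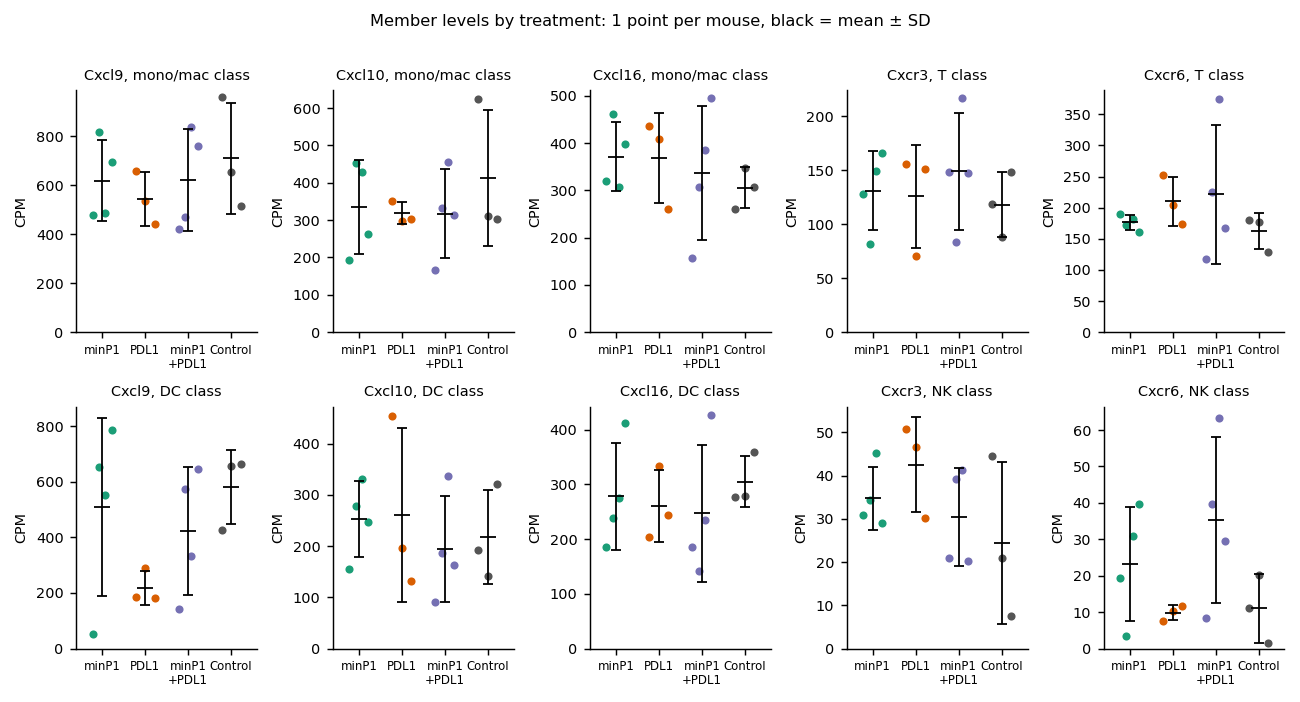
Level of the members by treatment in CPM, with 1 point per mouse and the mean ± SD in black, for ligands in monocytes with macrophages and in dendritic cells and for receptors in T and NK cells. For Cxcl9 in dendritic cells the PDL1 mice, at 181 to 289.6, lie below the Control mice, at 428 to 663, and Control_1 is highest for Cxcl9 and Cxcl10 in monocytes with macrophages.

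The share of cells with a read of a member was compared as well, for 17 pairs of member and class thinned to 10000 reads. Of these 0 passed a permutation test of F over the 4 groups with 100000 permutations (smallest adjusted p 0.791), and 0 passed the exact permutation test of the antibody within peptide strata (smallest adjusted p 0.895). Cxcl9 reads were in 34.2 ± 3.597% of macrophages in minP1 mice, 46.0 ± 6.95% in PDL1 mice, 33.1 ± 12.5% in minP1_PDL1 mice and 34.1 ± 6.73% in Control mice. Cxcl16 reads were in 71.8, 66.0, 49.9 and 59.7% of macrophages as means of minP1, PDL1, minP1_PDL1 and Control mice. Cxcr3 reads were in 21.6, 20.8, 21.0 and 17.8% of T cells as means of those groups.

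The rest of the pathway was described by 12 genes of the axis: the CXCR3 ligand Cxcl11, the chemokine-cleaving peptidase Dpp4, the sheddases Adam10 and Adam17, the transcription factors Tbx21, Eomes and Runx3, the arrestins Arrb1 and Arrb2, the G protein subunits Gnai2 and Gnai3, and the integrin subunit Itgal. All 12 were tested in the 5 classes, and 0 of 420 tests passed with edgeR, with 24 (5.71%) at an unadjusted p under 0.05, beside 5.58% of all genes over the same contrasts. In monocytes and macrophages of minP1_PDL1 over Control mice, 6 were above 0 and 6 below, with a median log2 change of 0.02 beside 0.01 over all genes. Cxcl11 stood there at 21.3, 80.6, 226 and 82.5 CPM in the minP1_PDL1 mice and at 360.2, 165 and 176 CPM in the Control mice. Its log2 change was -1.17 ± 0.55 (adjusted p = 0.70 by edgeR), with 1 minP1_PDL1 mouse inside the Control range. The other 11 lay between -0.67 for Dpp4 and 0.22 for Arrb1.

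The genes of interferon gamma signalling, the main inducer of Cxcl9, gave 0 of 28 past the test in the same contrast. Of these 28 genes 24 were above 0, with a median log2 change of 0.15 beside 0.01 over all genes, and 6 higher and 1 lower had an unadjusted p under 0.05, beside 7.06% of all genes. The 3 of smallest p were Nos2, which encodes inducible nitric oxide synthase (log2 change 1.76 ± 0.48), Il18bp (0.80 ± 0.24) and the GTPase gene Gbp4 (0.49 ± 0.19). For the antibody averaged over peptide, 24 of 28 were again above 0, with 8 higher and 0 lower at an unadjusted p under 0.05, beside 7.17% of all genes. In minP1 over Control mice 9 of the 28 were above 0 and 19 below, with a median of -0.05 and 0 at an unadjusted p under 0.05. These contrasts share the Control mice. Cxcl9 itself changed by -0.17 in minP1_PDL1 over Control mice, as given above.

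Within monocytes and macrophages, the cells that held a Cxcl9 read were compared with those that did not, at 10000 reads per cell and within each mouse. Of 2385 cells 893 held a read and 1492 did not, and all 14 mice had at least 10 of each. The other CXCR3 ligands Cxcl10 and Cxcl11, Cxcl16 and the MHC class II genes Cd74, H2-Ab1 and H2-Eb1 were higher in cells with a Cxcl9 read, and most other chemokines were lower. The test called 465 of 7459 genes (6.23%), with 233 higher (3.12%) and 232 lower (3.11%), by edgeR's quasi-likelihood test with the mouse as a block.

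Cxcl10 averaged 604 ± 206 CPM in cells with a Cxcl9 read, with a lowest, median and highest mouse of 295, 597 and 997 CPM. It averaged 269 ± 124 CPM in cells without one, with 34.5, 253 and 483 CPM. It was higher in 13 of 14 mice, the exception being minP1_PDL1_4 (295 against 438 CPM), with a log2 change of 1.26 ± 0.17 (adjusted p = 2.1e-06 by edgeR). Cxcl16 averaged 473 ± 136 CPM in cells with a read and 233 ± 67.2 CPM in cells without, higher in 14 of 14 mice (1.06 ± 0.08, adjusted p = 1.1e-12 by edgeR). Cxcl11 averaged 346 ± 196 CPM and 56.6 ± 36.9 CPM, higher in 14 of 14 mice (2.70 ± 0.17). The receptors did not pass, with Cxcr3 at 32.2 ± 18.9 CPM in cells with a read and 24.0 ± 10.1 CPM in cells without, and Cxcr6 at 32.7 ± 18.1 and 30.04 ± 18.1 CPM.

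The same held for cells counted one by one. Among cells with a Cxcl9 read 44.8% also held a Cxcl10 read, against 24.3% of cells without, and the share was higher in 14 of 14 mice. For Cxcl16 the shares were 73.7% and 41.6%, and for Cxcl11 36.7% and 8.18%, each higher in 14 of 14 mice. Within monocytes alone 46.6% of cells with a Cxcl9 read held a Cxcl10 read, against 26.3%, and within macrophages 38.5% against 17.5%. Cells with and without a read were 27.9% and 28.8% monocytes and 39.9% and 38.7% cells of the larger macrophage cluster. The cluster of monocytes or macrophages was 29.7% and 26.9% of them, and a macrophage cluster of shallow cells 2.58% and 5.56%. Without the cluster of monocytes or macrophages, an alternative added after the data were seen, 315 of 6320 genes were called.

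Of the interferon gamma list 10 of 27 genes were higher and 0 lower in cells with a Cxcl9 read, with a median log2 change of 0.25 beside 0.00 over all genes. Gbp4 averaged 371 ± 86.1 CPM in cells with a read and 238 ± 61.1 CPM in cells without (0.68 ± 0.09), and Iigp1 averaged 164 ± 44.6 and 89.5 ± 30.9 CPM (0.93 ± 0.13). Of the named genes of MHC class II presentation, all higher in 14 of 14 mice, Cd74, the invariant chain, averaged 5056 ± 1364 CPM in cells with a read and 3227 ± 902 CPM in cells without, H2-Ab1 2992 ± 993 and 1852 ± 760.3 CPM, and H2-Eb1 1899 ± 773 and 1032 ± 448 CPM. Ly6a and Serpina3g were also among the genes of smallest p, with log2 changes of 1.34 ± 0.09 and 1.86 ± 0.14.

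Other chemokines went the opposite way, with 10 of 16 lower, 2 higher and a median log2 change of -0.51. Ccl2, which draws monocytes through CCR2, averaged 1138 ± 397 CPM in cells with a Cxcl9 read and 1901 ± 639 CPM in cells without (-0.73 ± 0.09, lower in 13 of 14 mice). Ccl6 averaged 1449 ± 503 and 2246 ± 493 CPM and Ccl9 831 ± 205 and 1253 ± 272 CPM, each lower in 14 of 14 mice. Ccl8 was one of the 2 that were higher (1.47 ± 0.35, in 12 of 14 mice). Other chemokine receptors had 1 of 8 higher and 0 lower.

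Among the named genes outside the chemokines, F13a1, Thbs1 and Arg1 had lower levels in cells with a Cxcl9 read. F13a1, which encodes a clotting factor subunit, averaged 128 ± 77.0 CPM in cells with a read and 344 ± 101 CPM in cells without, and Thbs1 354 ± 133 and 876 ± 276 CPM, each lower in 14 of 14 mice. Arg1, which encodes the arginine-degrading enzyme arginase 1, averaged 1283 ± 646 and 2278 ± 1443 CPM (-0.79 ± 0.09, lower in 13 of 14 mice). The share of cells with an Arg1 read went the other way, at 54.8% of cells with a Cxcl9 read and 50.3% of cells without, and was higher in 9 of 14 mice. Spp1, which encodes osteopontin, averaged 1134 ± 350.0 and 1651 ± 855 CPM (-0.41 ± 0.12, adjusted p = 0.030 by edgeR and 0.643 without thinning). It missed the threshold without Control_2, minP1_1, minP1_2, minP1_4, minP1_PDL1_1 or minP1_PDL1_2 (adjusted p = 0.0567 to 0.0898 by edgeR). A Spp1 read was in 64.5% of cells with a Cxcl9 read and 61.4% of cells without, the share again being higher in 9 of 14 mice. Mrc1 was lower at 234 ± 77.5 CPM in cells with a read and 322 ± 90.2 CPM in cells without, but not without thinning (adjusted p = 0.066 by edgeR) or without the cluster of monocytes or macrophages (0.462). Nos2 did not pass, at 30.8 ± 19.5 and 34.5 ± 19.3 CPM.

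**Figure D4:**
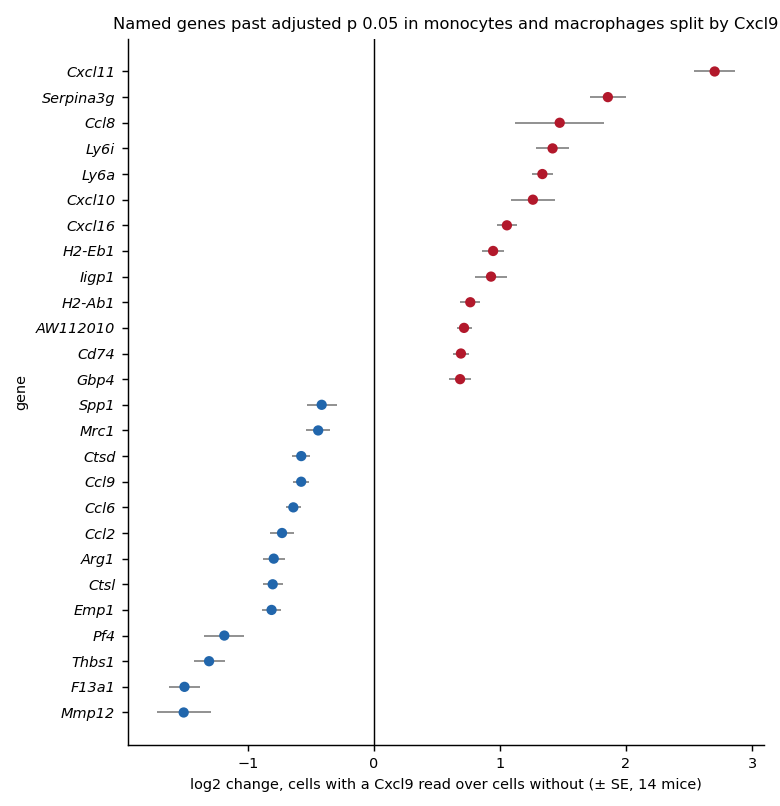
Log2 change, with its SE over 14 mice, of named genes past an adjusted p of 0.05 between monocytes and macrophages with a Cxcl9 read and those without. Cxcl11 stands highest at 2.70, with Cxcl10 at 1.26 and Cxcl16 at 1.06, and F13a1 and Mmp12 stand lowest at -1.502 and -1.508.

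In T cells split by Cxcr6, 404 cells held a read and 1439 did not, and 207 of 6052 genes (3.42%) were called, 90 higher (1.49%) and 117 lower (1.93%). The median log2 change over all genes was -0.12. Regulatory T cells were 8.66% of cells with a Cxcr6 read and 38.1% of those without, gamma delta T cells 19.3% and 4.38%, and CD8 T cells 31.9% and 10.98%. Foxp3, the regulatory T cell transcription factor, averaged 90.1 ± 47.3 CPM in cells with a read and 366 ± 88.5 CPM in cells without (-2.08 ± 0.22), lower in 14 of 14 mice. Il17a, a cytokine of gamma delta T cells, averaged 364 ± 318 and 69.1 ± 63.3 CPM (2.59 ± 0.40), and Cd8a 447 ± 181 and 219 ± 56.8 CPM (1.02 ± 0.14). Ifng, which encodes interferon gamma, averaged 365 ± 264 CPM in cells with a Cxcr6 read and 145 ± 68.7 CPM in cells without (1.23 ± 0.24, adjusted p = 0.0018 by edgeR), higher in 11 of 14 mice. Cxcr3 averaged 132 ± 84.2 and 172 ± 59.0 CPM (-0.48 ± 0.23, adjusted p = 0.33 by edgeR), and 0.0405 without thinning.

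In T cells split by Cxcr3, 374 cells held a read and 1469 did not, and 10 of 6077 genes (0.165%) were called, 2 higher (0.0329%) and 8 lower (0.132%). Ccl3, a chemokine gene of activated effector cells, averaged 41.3 ± 72.1 CPM in cells with a Cxcr3 read and 183 ± 100.3 CPM in cells without (-2.69 ± 0.34), lower in 14 of 14 mice. Spp1 averaged 56.5 ± 55.5 and 204 ± 87.5 CPM, and Prf1, which encodes perforin, 42.5 ± 43.7 and 113 ± 43.9 CPM (-1.83 ± 0.36, adjusted p = 0.023 by edgeR). Leaving out single mice left 3 to 9 genes, and Prf1 missed the threshold without Control_1, Control_2, PDL1_1, PDL1_3 or minP1_PDL1_1 (adjusted p = 0.051 to 0.085). Regulatory T cells were 39.8% of cells with a Cxcr3 read and 29.5% of those without, and CD8 T cells 8.56% and 17.4%. A Cxcr6 read was in 19.0% of T cells with a Cxcr3 read and 22.7% of those without, more often in 5 of 14 mice.

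Across the 14 mice, 6 relations between members or with Ifng were tested on log2(CPM + 1). Cxcl9 and Cxcl10 in monocytes and macrophages had Pearson's r = 0.688 (permutation p = 0.00541, adjusted 0.0325) and Spearman's rho = 0.644 (permutation p = 0.0149, adjusted 0.0896). Without the 2 mice farthest from the median of Cxcl9, r was 0.478 (permutation p = 0.119), which no longer passed. Within groups, as deviations from the group means, r was 0.682. Leaving out single mice gave r from 0.571 (without Control_1) to 0.785.

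The other 5 relations did not pass. Ifng in T and NK cells had r = 0.042 with Cxcl9 and 0.203 with Cxcl10 in monocytes and macrophages. Cxcl9 had r = 0.062 with Cxcr3 in T cells, and the receptors in T cells had 0.127 with each other. Cxcl16 in monocytes and macrophages and Cxcr6 in T cells had r = 0.464 (permutation p = 0.09996, adjusted 0.300) and rho = 0.209. Their levels over mice are those given above by group.

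**Figure D5:**
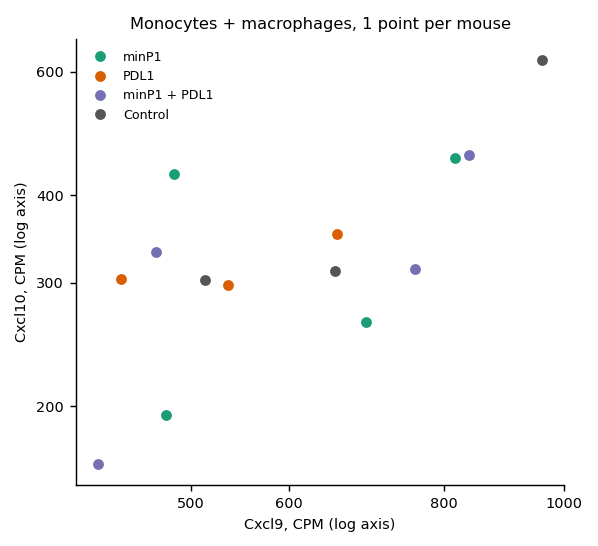
Cxcl10 against Cxcl9 in monocytes and macrophages, both in CPM on log axes, with 1 point per mouse coloured by group. Control_1 is at the upper right with 959.7 CPM of Cxcl9 and 624 CPM of Cxcl10, and minP1_PDL1_1 at the lower left with 421 and 165 CPM.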

How the data were processed

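Per the submitters' processing notes, the authors used cutadapt 2.10, Bowtie2 2.3.4.1, the genome build mm10 and Seurat 2.3.4. Cells of 14 mice, marked by hashtags, came from 1 BD Rhapsody library, per the labels. The deposited values are raw read counts, as whole numbers, for 8262 barcodes and 22836 genes. Of these, 147 columns (141 hashtag doublets and 6 with no hashtag found) were left out, as were 383 with over 25% mitochondrial reads. The 7732 kept cells stand beside 7613 in the study's design text, which used another filter. Cells were clustered with scanpy 1.11.5 (normalised to 10000, 1994 variable genes after the members and the axis list were left out, 30 components, 20 neighbours, Leiden resolution 1.0). A name needed at least 3 fixed markers in a cluster's top 50 by fold, over genes in at least 25% of its cells; how dendritic and monocyte clusters were merged was decided after the clusters were seen. Scrublet marked 0.194% of cells, which is too few to have worked, so the 748 cells with the highest scores were left out as an alternative only.

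Counts were summed per mouse where it had at least 10 cells of a class, and tested with edgeR 4.0.16 (quasi-likelihood, TMM, filterByExpr, 2-sided, Benjamini-Hochberg over all genes). The tests covered 12834 genes for T cells, 11915 for NK cells, 15153 for monocytes with macrophages, 11987 for dendritic cells and 18410 for all cells. DESeq2 1.42.0 was an alternative. Shares and splits used cells thinned to 10000 reads, and 7127 cells were that deep. On simulated data, 70.1% of 2-fold and 99.0% of 4-fold changes were recovered among 15153 genes for minP1_PDL1 against Control in monocytes and macrophages. In T cells 25.9% and 84.8% were recovered among 12834 genes. The changes were planted only in genes above the median level, and no contrast in NK or dendritic cells was simulated. These rates therefore say nothing about the members in those 2 classes.

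The members, lists, marker genes and tests were chosen with earlier results of these data known. Named genes were the members, the axis list, list genes past an adjusted p of 0.05 or the 3 of smallest p, and in each split up to 8 genes per direction by p, up to 8 of largest change with a mean of at least 50 CPM and up to 10 list genes; of these the text names a part. Per mouse, 466 to 724 cells set the precision. Replicate numbers were not used to pair the mice in the main run. Of 19 same-number pairs 2 deviated together with a correlation over 0.1, and both were pairs of replicate 1. Pairs of unlike number were not compared, so this check cannot decide whether the numbers pair mice.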

Additional observations from a re-analysis of the deposited data

Results flagged for a closer look

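Dixon's test was run on 54 groups of 4 mice, some on the level and some on the share of cells with a read. It marked 4 groups in which a mouse stood apart, where chance gives about 2.7 (1 in 20) over all 54. All 4 concern the share for a receptor, and no level was marked. Cxcr3 reads were in 19.6% of regulatory T cells in minP1_PDL1_2, and in 25.7, 26.4 and 26.5% in the other minP1_PDL1 mice. Cxcr6 reads were in 8.82% of regulatory T cells in minP1_PDL1_4 (3 of 34 cells), and in 1.89, 2.17 and 2.86% in the other minP1_PDL1 mice, which is 1 cell each of 53, 46 and 35. In T cells as a whole, Cxcr6 reads were in 22.5% of cells in minP1_4, and in 19.1, 19.4 and 19.6% in the other minP1 mice. In NK cells of minP1_2, Cxcr6 reads were in 0 of 84 thinned cells (0%), which allows a share of cells with a read of up to 3.57% for counting error only, and in 4.46, 5.15 and 5.30% in the other minP1 mice. At full depth 2 of 90 of those NK cells held a Cxcr6 read, at 3.43 CPM.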

How the results depend on the processing

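No member was called in any treatment contrast under RLE normalization, no filter on low counts, the replicate block, DESeq2, resolution 0.5, no mitochondrial filter, no cells of high doublet score or with any mouse left out. The same was true without non-immune clusters and without the cluster of monocytes or macrophages, each run on 35 of the 175 tests. An unadjusted p under 0.05 by edgeR was then found in 0 and 7 of the 35 tests in that order, beside 7 of 175 in the main run. The 7 of 35 are tests in monocytes and macrophages only, where the main run had 0 of 21 for the ligands. Unadjusted p-values in that class thus depended on this cluster, and the share over all genes in that run is not given here. With mice left out singly it was found in 4 to 19 of 175 tests, most often without minP1_PDL1_1. The levels of members that were rerun moved by less than 1 SD under each alternative run, except that CD8 T cells had no value at resolution 0.5. Only chosen pairs of member and class were rerun, with none in NK cells, conventional DC or other T cells. DESeq2 called 724 genes over the 35 contrasts, and edgeR 1. With the replicate block, the Cxcl16 change in monocytes and macrophages of minP1_PDL1 over Control mice was -0.0256. Keeping barcodes of high mitochondrial share gave -0.0749 for Cxcr3 in NK cells of minP1_PDL1 over Control mice, and for Cxcr6 -0.28 over Control and -0.0854 over PDL1 mice. In that run the NK class also lacked a Gzmd-led cluster of 239 cells, which had no name there. With mice left out singly, changes of minP1_PDL1 over Control mice in monocytes and macrophages ran from -0.36 to 0.10 for Cxcl9, -0.60 to 0.0539 for Cxcl10 and -0.10 to 0.39 for Cxcl16, those of Cxcl10 in dendritic cells from -0.60 to 0.20 and those of Cxcr3 in NK cells from -0.13 to 1.08.

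Genes called in the Cxcl9 split numbered 839 without thinning. In the Cxcr6 split they were 365 without the filter on low counts and 471 without thinning, and in the Cxcr3 split 132 and 20. The Cxcr3 split gave 3 to 9 genes with mice left out singly, and Cxcr6 between its sides then changed by -0.20 to 0.0456. Without the cluster of monocytes or macrophages, Cxcr6 changed by -0.0297 in the Cxcl9 split. Without thinning, cells with a read are also the deeper ones by construction.

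Ifng and Cxcl9 had r = -0.0390 as deviations from group means and -0.0396 without the 2 farthest mice, and -0.12 to 0.19 with mice left out singly. Without the 2 farthest mice r was -0.00918 for Ifng and Cxcl10 and -0.14 for Cxcl9 and Cxcr3. Left out singly, mice gave -0.0526 to 0.34 for Ifng and Cxcl10 and -0.13 to 0.22 for Cxcl9 and Cxcr3. They gave -0.35 (without minP1_PDL1_3) to 0.22 for the receptors. Cxcl9 and Cxcl10 had r = 0.478 without the 2 farthest mice and 0.571 to 0.785 with mice left out singly. Relations past the threshold then numbered 0 without the 2 farthest mice and 0 to 1 with mice left out singly. The cause of these shifts was not tested. The median T cell held 21068 reads, and a cell without a read at 10000 reads may still express the gene.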

Other observations

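Neutrophils, which were in no treatment contrast here, had Cxcl10 at 209, 944, 854 and 332 CPM in the minP1 mice, 785, 1848 and 803 CPM in the PDL1 mice, 459, 1009, 771 and 1495 CPM in the minP1_PDL1 mice and 335, 397 and 201 CPM in the Control mice. In level the PDL1 and minP1_PDL1 mice stood above the Control mice, and the minP1 mice spanned them. The shares of neutrophils with a read overlapped, at 28.6, 43.8 and 27.7% in the PDL1 mice, 24.6, 27.3, 32.6 and 38.8% in the minP1_PDL1 mice and 33.3, 28.6 and 19.0% in the Control mice. The Control mice had 9, 14 and 21 neutrophils, of which 3, 4 and 4 held a read, and 20 to 65 were found in each treated mouse. The levels were chosen after they had been seen and carry no test.

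Cxcr3 in CD8 T cells stood at 6.10, 37.4, 89.9 and 97.2 CPM in the minP1 mice, 67.3, 44.8 and 0 CPM in the PDL1 mice, 60.5, 51.9, 133 and 121 CPM in the minP1_PDL1 mice and 16.6, 11.1 and 28.6 CPM in the Control mice. The minP1_PDL1 mice stood above the Control mice in level. The shares of CD8 T cells with a Cxcr3 read at 10000 reads overlapped between minP1_PDL1 and Control mice, and PDL1_3 had 0 of 17 cells with a read at full depth, which allows a share of cells with a read of up to 17.6% for counting error only. The shares were 10, 6.06, 10 and 25% in the minP1_PDL1 mice and 10.5, 8.00 and 8.70% in the Control mice. Each mouse had 10 to 35 of these cells, and this level too was chosen after it had been seen.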
